A study of Mus musculus with 2 samples.

Results

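CD8 T cells that carried Lef1 or Tcf7 were taken from the immune cells of lenvatinib-resistant mouse liver tumors, and the rule found 1902 such cells among 25814. A cell was included when it held at least 2 UMIs (unique molecular identifiers, each a counted transcript) of Cd3d, Cd3e and Cd3g together, at least 2 of Cd8a and Cd8b1 together, and at least 2 of Lef1 and Tcf7 together. It also had to hold no UMI of Cd4, Gzmk, Pdcd1, Klra1 or Klra6, and UMIs of fewer than 4 of 10 mitosis genes. These genes therefore chose the cells, and their levels are given only as a description. The lenvatinib library held 1275 of these cells and the combo library 627. They are named Lef1/Tcf7+ CD8 T cells here, since the label naive and stem-like was only partly borne out by genes outside the rule, as shown for the homing and effector genes.

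LEF1 and TCF1 (the product of Tcf7) are related DNA-binding factors that keep naive CD8 T cells quiescent and able to renew, and both decline as a CD8 T cell turns into an effector. Naive and central memory CD8 T cells also carry CCR7 and the sphingosine phosphate receptor S1PR1, with which they enter and leave lymph nodes. In tumors, TCF1+ CD8 T cells are known as the source from which effector and exhausted cells are replenished. A TCF1+ progenitor of exhausted cells carries PD-1, and the rule removed every cell with a Pdcd1 UMI, so such progenitors were left out wherever Pdcd1 was detected.

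The study asked how palbociclib, an inhibitor of CDK4 and CDK6, altered the immune cells of tumors that had grown through lenvatinib, a multikinase inhibitor. Tumors were raised in wild-type C57BL/6 J mice aged 6-8 weeks by hydrodynamic injection of plasmids for MYC with luciferase, for Cas9 with a p53 guide and for the Sleeping Beauty transposase, so the oncogenic change was made in liver cells and the T cells were the host's own. From day 12 after the plasmids, all mice received 30 mg/kg lenvatinib for 25 days before they were divided into groups. Live CD45+ cells were then sorted from tumors on continued lenvatinib, or on lenvatinib with palbociclib at 100 mg/kg (combo), and 1 library of single cells was made for each treatment. Neither the labels nor the methods give the number of mice behind a library, and no library of untreated tumors entered the comparison. With 1 library per treatment, effects of treatment cannot be told apart from those of the tumor, the sort or the library preparation. Every interval below covers counting error only, and no p-value was computed.

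The libraries were of like depth. After the cell filter, the lenvatinib library held 14201 cells with a median of 5541 UMIs, and the combo library 11613 cells with a median of 5754. The libraries shared 49 cell barcodes, none of which belonged to a Lef1/Tcf7+ CD8 T cell in both. Of the 5 T cell markers, the Cd3 genes chose the cells, and the T cell receptor chains Trac and Trbc2 did not. Trac stood at 468 CPM (UMIs of the gene per 1000000 UMIs of the group) under lenvatinib and 544 CPM under combo, and Trbc2 at 944 and 1103 CPM. B cells, taken as cells with at least 2 UMIs of Cd79a and Ms4a1 and no Cd3 UMI, gave the background of free RNA, with Trac at 14.4 and 6.80 CPM and Trbc2 at 36.5 and 30.7 CPM. Of the CD4 T cell markers, Cd4 was at 0 by the rule, Cd40lg stood at 2.01 and 5.86 CPM, and Foxp3 at 1.57 and 1.65 CPM. Scrublet marked 5.57% of the Lef1/Tcf7+ CD8 T cells under lenvatinib and 4.15% under combo as doublets, and these cells were kept.

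Lef1/Tcf7+ CD8 T cells were the largest of 6 classes of CD8 T cells under lenvatinib and came after the Gzmk+ class under combo. Among all filtered cells, 8.98% belonged to the class in the lenvatinib library (95% exact Clopper-Pearson interval 8.51-9.46%) and 5.40% in the combo library (4.995-5.83%), a ratio of combo to lenvatinib of 0.60 (range 0.53-0.68 from the ends of both intervals). Within the CD8 gate, which asks for the Cd3 and Cd8 UMIs and no Cd4, their share was 34.3% (32.8-35.9%) and 22.4% (20.8-24.0%), a ratio of 0.65 (0.58-0.73). The CD8 gate itself took 26.1% of all cells under lenvatinib and 24.1% under combo. Cells of the Gzmk+ class, which carry granzyme K, made up 18.2% of the gate under lenvatinib and 33.8% under combo. Pdcd1+ cells, which carry the PD-1 receptor, made up 9.18% and 19.6%. The Ly49+ class (Klra1 or Klra6) and the cycling class had the opposite order, with 13.9% and 5.89% for Ly49+ cells and 10.4% and 2.53% for cycling cells. In the gate's last class, which lacks these genes and has fewer than 2 UMIs of Lef1 and Tcf7, the intervals overlapped at 14.0% (12.9-15.1%) and 15.9% (14.6-17.3%).

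**Figure D1:**
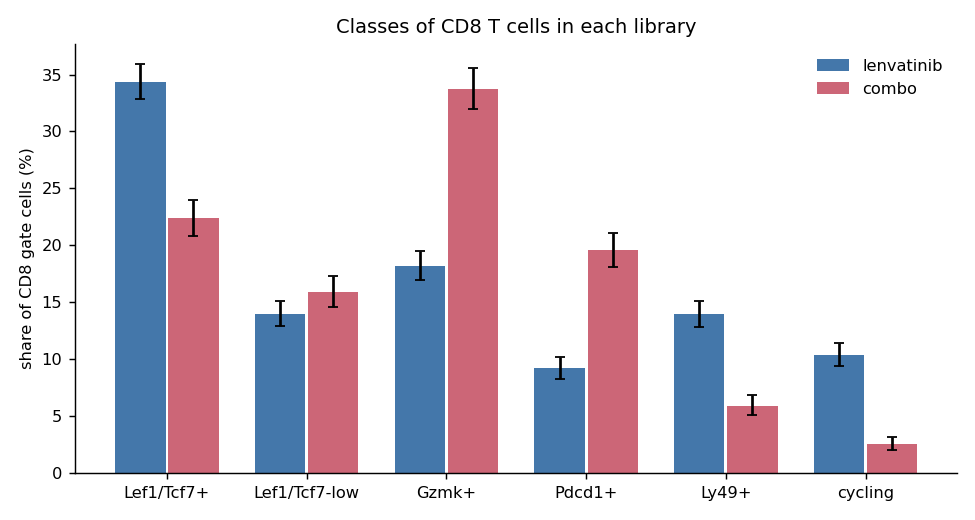
Bars give the share of CD8 gate cells (%) in each of 6 classes, in the lenvatinib library (blue, 3713 cells) and the combo library (red, 2802 cells); error bars are 95% exact binomial intervals of counting error. The Lef1/Tcf7+ class stood at 34.3% under lenvatinib and 22.4% under combo, whereas the Gzmk+ and Pdcd1+ classes were larger under combo.

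The rule asks for a minimum of UMIs, and the Lef1/Tcf7+ CD8 T cells were more deeply sequenced than the class below its limit. Their median was 8442 UMIs under lenvatinib and 8031 under combo, against 4253 and 4240 in the Lef1/Tcf7-low class. When every cell was first thinned to 2000 UMIs, the class took 14.3% of the CD8 gate under lenvatinib and 6.85% under combo, a ratio of 0.48. Cells just outside the limit, with 1 UMI of Lef1 or Tcf7, numbered 238 under lenvatinib and 164 under combo, and cells just inside it, with 2 UMIs, numbered 204 and 147. Ccr7 stood at 109 CPM just outside and 124 CPM just inside under lenvatinib, and at 96.2 and 184 CPM under combo. Ccl5, a chemokine of memory and effector T cells, stood at 4992 and 4263 CPM under lenvatinib and at 8520 and 5522 CPM under combo. Steps at the limit were larger under combo for Gzmb, at 773 CPM just outside and 229 CPM just inside, and for Il7r, at 207 and 435 CPM. Under lenvatinib, Gzmb stood at 262 and 234 CPM and Il7r at 202 and 216 CPM.

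Both transcription factors of the rule were present together in 71.8% of the cells under lenvatinib and 70.0% under combo. Tcf7 without Lef1 was seen in 24.9% and 23.1%, and Lef1 without Tcf7 in 3.29% and 6.86%. The median cell held 5 UMIs of the pair in each library. Lef1 (ENSMUSG00000027985, mm10 chromosome 3, 131110471-131224356, + strand) stood at 204 CPM (196-213) under lenvatinib and 251 CPM (238-265) under combo. Tcf7 (ENSMUSG00000000782, chromosome 11, 52252371-52283014, - strand) stood at 406 CPM (395-418) and 362 CPM (346-378), so the order of the libraries was not the same for the pair.

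Genes of lymph node homing and of the naive state other than Lef1 and Tcf7 were mostly higher in the Lef1/Tcf7+ class than in the other CD8 gate cells of the same library. Of 17 such genes, each with a mean of at least 20 CPM, 15 were higher in both libraries, where 18.1% of all 5292 genes were, and 4 were at least 2-fold higher in both, where 0.208% of all genes were. The cells were chosen on genes that move with this program, so these counts describe the class and are no test of it. Ccr7 (chromosome 11, 99144196-99155077, - strand), the chemokine receptor for lymph node entry, stood at 246 CPM in the class and 81.2 CPM in the other CD8 cells under lenvatinib, and at 321 and 48.5 CPM under combo. Dapl1, a gene with high levels in naive and stem-like CD8 T cells, stood at 116 against 53.0 CPM under lenvatinib and at 184 against 20.1 CPM under combo. Il7r, the receptor chain for the survival cytokine IL-7, stood at 235 against 117 CPM and at 475 against 170 CPM. Igfbp4, which encodes a secreted protein that binds insulin-like growth factors, was at 18.2 against 6.09 CPM and at 60.8 against 6.75 CPM. The exceptions were the costimulatory receptors Cd27 and Cd28. Across these 17 genes the median log2 ratio of the class to the other CD8 cells was 0.68 under lenvatinib and 1.41 under combo, where the median of all genes was -0.12 and -0.17. Beyond the list, Il6ra, the IL-6 receptor chain, also ranked among the 10 highest genes of the class, with 48.5 against 15.2 CPM under lenvatinib and 44.7 against 16.2 CPM under combo.

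Memory and effector genes were lower in the class than in other CD8 cells but far from absent. Of 25 such genes tested, 23 were lower in both libraries, where 64.8% of all genes were, and 6 were at least 2-fold lower in both, where 1.51% of all genes were. Ccl5 stood at 2511 CPM in the class and 6363 CPM in the other CD8 cells under lenvatinib, and at 3477 and 11142 CPM under combo. Gzmb, the cytotoxic protease granzyme B, stood at 108 against 395 CPM and at 175 against 1174 CPM. In contrast, Ly6c2, a surface antigen of memory CD8 T cells, was higher in the class, at 1426 against 1000.3 CPM and 1025 against 638 CPM. Il2rb, the receptor chain through which IL-2 and IL-15 signal, was level between the class and the rest under combo, at 349 and 350 CPM, and stood at 569 and 626 CPM under lenvatinib. The lowest genes of the class, next to those the rule removes, were genes of dividing cells such as Pclaf, at 11.5 CPM under lenvatinib and 4.03 CPM under combo, and Hist1h1b, at 4.71 and 2.20 CPM. The rule's limit on mitosis genes bears on these directly.

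**Figure D2:**
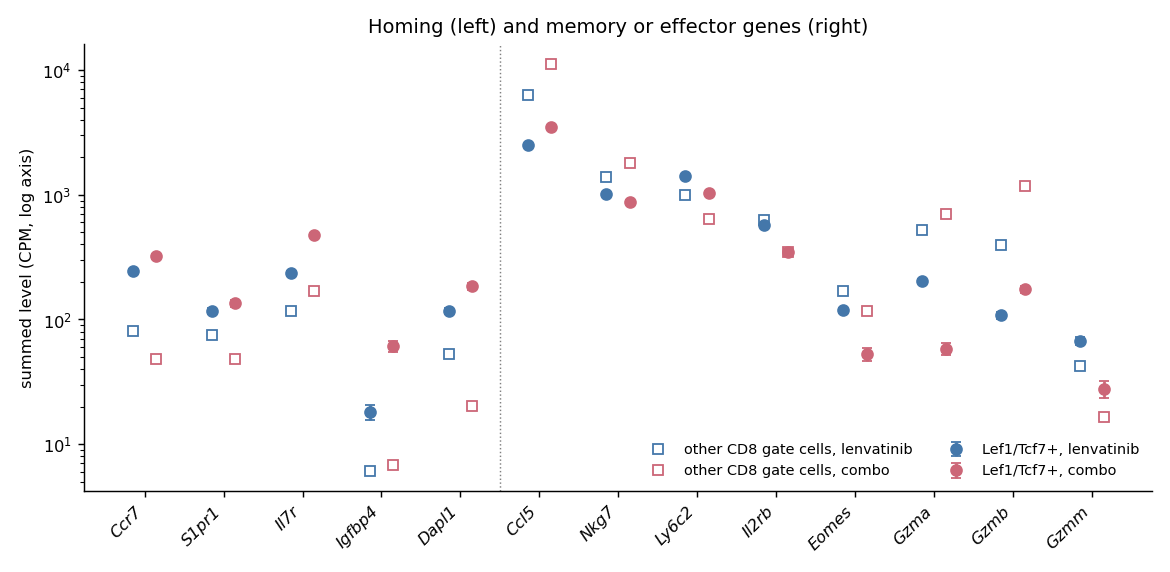
Summed level (CPM, log axis) of 5 homing or naive-state genes (left of the dotted line) and 8 memory or effector genes (right) in Lef1/Tcf7+ CD8 T cells (filled circles, with 95% exact Poisson intervals) and in all other CD8 gate cells (open squares), under lenvatinib (blue) and combo (red). The homing genes lay above the other CD8 cells in both libraries, and Ccl5 stood at 2511 and 3477 CPM within the class.

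Effector genes were detected in nearly every cell. Each cell was thinned to 2000 UMIs, which left out 5 cells under lenvatinib and 1 under combo. A UMI of Ccr7 was seen in 29.6% of the cells under lenvatinib and 38.0% under combo, and of S1pr1 in 21.5% and 24.0%. At the same depth, 98.3% (97.4-98.9%) under lenvatinib and 93.6% (91.4-95.4%) under combo held a UMI of Ccl5, Cd44, Cxcr3, Il2rb or Nkg7. The background of that measure was high, since 72.5% and 57.4% of B cells held such a UMI at median depths of 3332 and 3456 UMIs before thinning. Nkg7, a granule protein of cytotoxic cells, separated better, with a UMI in 81.4% of the class under lenvatinib and 73.8% under combo against 19.6% and 7.32% of B cells. With Nkg7 in most of its cells at this depth, the bulk of the class did not show the pattern of resting naive cells. Of the stem-like genes, Slamf6 stood at 29.7 and 48.4 CPM and Id3 at 52.1 and 57.2 CPM, whereas Cxcr5 stood at 8.29 and 10.1 CPM.

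The libraries differed in the summed UMIs of 3 memory genes per cell. Il2rb, Nkg7 and Ly6c2 were summed per cell, a score formed after the data were seen and chosen because B cells held little of it (a mean of 0.92 UMIs in 2000 under lenvatinib and 0.37 under combo). Lef1/Tcf7+ CD8 T cells held a mean of 6.11 such UMIs under lenvatinib and 4.33 under combo. Cells with 2 or fewer were 197 of 1270 under lenvatinib (15.5%, 13.6-17.6%) and 207 of 626 under combo (33.1%, 29.4-36.9%), a ratio of 2.13 (1.67-2.72). Cells with 6 or more were 52.4% and 31.5%, and the middle range from 3 to 5 held 32.1% and 35.5%. The score is a range, with 98 and 75 cells at 2 UMIs and 122 and 89 cells at 3 UMIs next to the limit. Per gene, Il2rb was detected in 65.7% of the cells under lenvatinib and 42.7% under combo, and Ly6c2 in 80.6% and 66.5%. For Ccl5 alone no such shift was seen, as 45.5% of the cells under lenvatinib and 44.7% under combo held 2 or fewer Ccl5 UMIs, a ratio of 0.98. Ccl5 also had the higher background, with a UMI in 51.2% and 41.3% of B cells. Cxcr3, a chemokine receptor of memory T cells, was detected in 12.5% and 13.4% of the class, with overlapping intervals (10.7-14.5% and 10.8-16.3%). The count therefore speaks for its 3 genes and not for the wider list of effector and memory genes.

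In the other CD8 classes the ratio of the libraries was nearer to 1. The share with 2 or fewer memory-gene UMIs was 15.6% and 17.5% in the Lef1/Tcf7-low class, a ratio of 1.13 (0.73-1.74), and 10.9% and 12.7% in the Gzmk+ class, a ratio of 1.16 (0.78-1.73). In the Pdcd1+ class it was 10.7% and 13.2%, a ratio of 1.24 (0.72-2.15). Il2rb on its own was detected less often under combo in these classes too, for example in 58.0% and 43.5% of Gzmk+ cells. The 3 ranges reach past the lower end of the range for the Lef1/Tcf7+ class, and the difference between the classes was not tested. CD4 T cells chosen by the same rule (Cd4 in place of Cd8, 186 cells under lenvatinib and 201 under combo) held few memory-gene UMIs in both libraries, with a share of 64.3% and 73.6%.

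**Figure D3:**
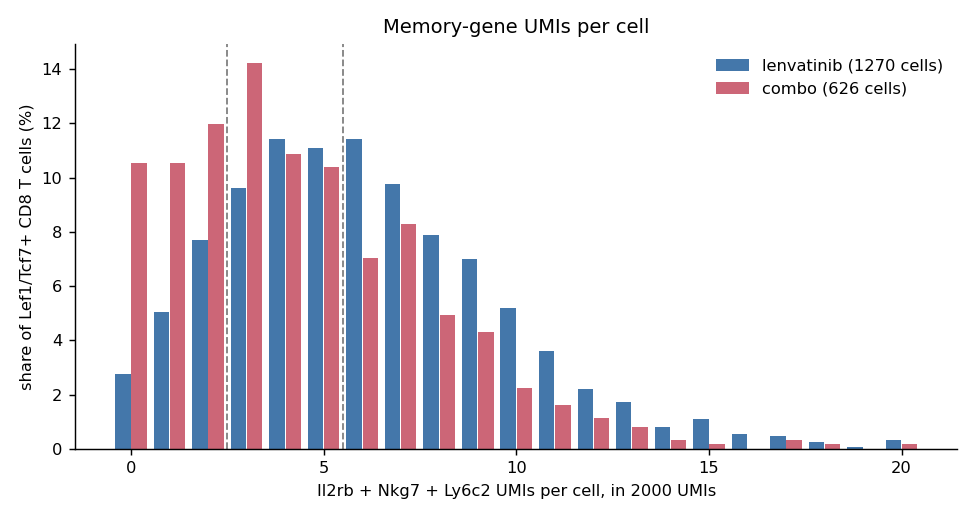
Share of Lef1/Tcf7+ CD8 T cells (%) by the number of Il2rb, Nkg7 and Ly6c2 UMIs in a cell thinned to 2000 UMIs, for 1270 cells under lenvatinib (blue) and 626 under combo (red); dashed lines mark the limits between 2 and 3 and between 5 and 6 UMIs. Cells with 2 or fewer made up 15.5% under lenvatinib and 33.1% under combo, without a gap in either distribution.

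Split by this score, several genes of the naive state lay further apart in the combo cells than in the lenvatinib cells. Igfbp4 stood at 101 CPM (86.9-118) in combo cells with 2 or fewer memory-gene UMIs and at 22.5 CPM (16.1-30.6) in those with 6 or more, whereas the lenvatinib values were 24.4 (17.6-33.0) and 17.6 CPM (14.4-21.4). Dapl1 stood at 269 and 123 CPM under combo and at 124 and 101 CPM under lenvatinib. Ccr7 showed the same order, with 444 and 230 CPM under combo and 280 and 222 CPM under lenvatinib. Slamf6, a receptor of stem-like CD8 T cells, stood at 73.6 and 25.9 CPM under combo and at 48.9 and 23.2 CPM under lenvatinib. Id3, another gene of such cells, had the opposite order and a smaller gap, at 46.9 and 51.1 CPM under combo and at 47.7 and 53.7 CPM under lenvatinib. Of the rule's own genes, given as a description, Lef1 stood at 335 and 187 CPM under combo and at 255 and 192 CPM under lenvatinib, and Tcf7 at 404 and 323 CPM and at 422 and 390 CPM.

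Effector genes outside the score ran the other way. Ccl5 stood at 1612 CPM in the combo cells with 2 or fewer memory-gene UMIs and at 4910 CPM in those with 6 or more, and at 2019 and 2747 CPM under lenvatinib. Gzmb stood at 69.5 CPM (57.6-83.1) and 344 CPM (318-373) under combo, against 101 (86.2-117) and 127 CPM (119-137) under lenvatinib. Xcl1, a chemokine that draws cross-presenting dendritic cells, stood at 90.3 and 322 CPM under combo and at 283 and 406 CPM under lenvatinib. Eomes, a transcription factor of memory CD8 T cells, was lower under combo at either end, with 30.7 and 70.2 CPM against 110 and 121 CPM. The combo cells held both the higher Igfbp4, Dapl1 and Ccr7 levels at one end and the higher Ccl5 and Gzmb levels at the other. Effector genes were split between the libraries at that high end. Gzma stood at 69.1 CPM under combo and 228 CPM under lenvatinib, Gzmm at 41.6 and 80.1 CPM, and Tbx21 at 37.7 and 52.4 CPM. Ifng stood at 182 and 153 CPM, and Klrd1 at 359 and 260 CPM. Il7r was higher under combo at both ends, at 548 and 361 CPM against 300 and 210 CPM. Depth was alike across the split, with medians from 7548 to 8595 UMIs in the 6 groups, and Scrublet marked 6.76% of the combo cells at the low end and 2.54% at the high end. Neutrophil RNA differed between the groups of the split but did not follow their order. From the low to the high end, S100a8 stood at 2199, 2552 and 657 CPM under combo. Under lenvatinib it stood at 568, 733 and 220 CPM. Over the whole class, 1 cell held 24.7% of the neutrophil marker UMIs under lenvatinib and another 32.7% under combo. The part of neutrophil RNA in the differences along the split was not tested.

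**Figure D4:**
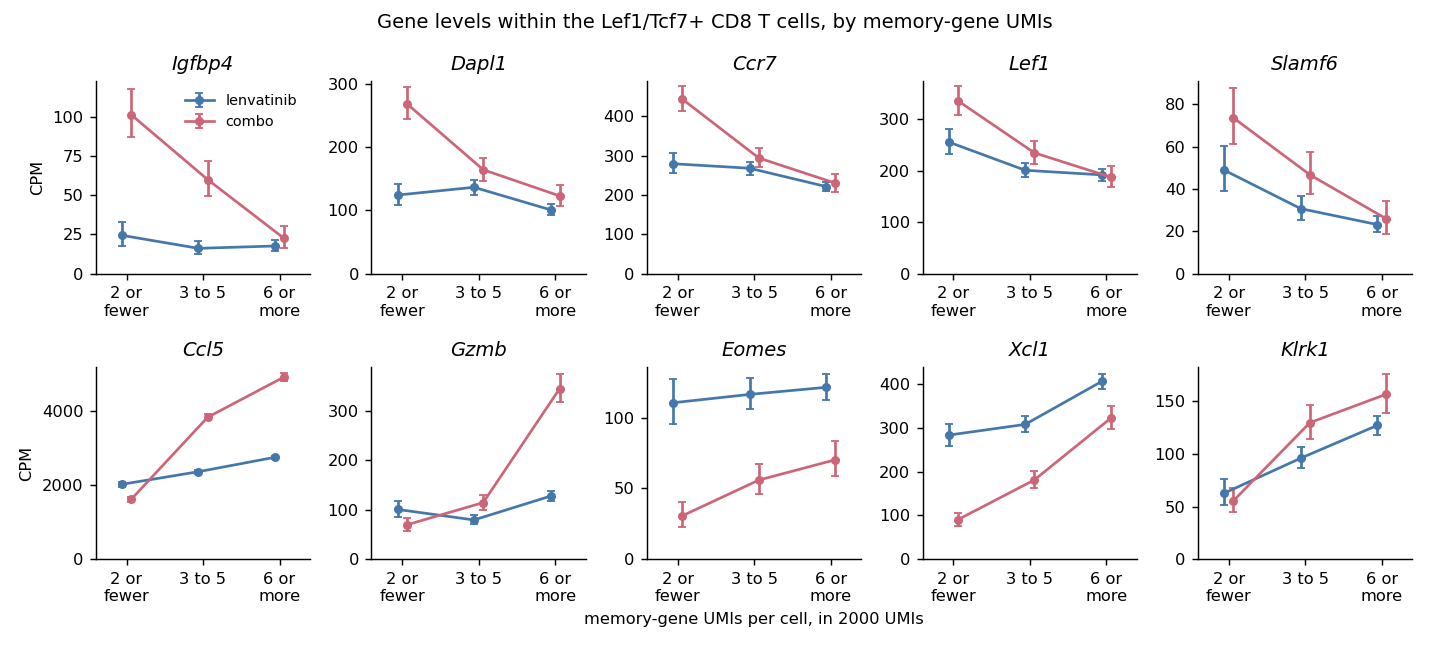
Level (CPM, linear axis from 0) of 10 genes in Lef1/Tcf7+ CD8 T cells with 2 or fewer, 3 to 5, and 6 or more memory-gene UMIs in 2000, under lenvatinib (blue) and combo (red), with 95% exact Poisson intervals; lines join the groups of 1 library, and Lef1 is a gene of the rule. Igfbp4, Dapl1 and Ccr7 were highest in the combo cells at the low end, and Ccl5 and Gzmb in the combo cells at the high end.

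Summed over the whole class, the ratio of combo to lenvatinib had a median of -0.18 (log2) over 5039 genes with a mean of at least 20 CPM. This shift was shared by the other CD8 classes, at -0.18 in Lef1/Tcf7-low, -0.18 in Gzmk+ and -0.21 in Pdcd1+ cells, so list values are also given relative to it. At least 2-fold higher under combo were 39 genes (0.774% of those tested), and at least 2-fold lower were 49 (0.972%). Centred on the median, these were 53 (1.05%) and 17 (0.337%). The named genes keep their uncentred values here.

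Of the 17 naive and homing genes outside the rule, 2 were at least 2-fold higher under combo and none was 2-fold lower. Igfbp4 (chromosome 11, 99041244-99054392, + strand) stood at 18.2 CPM (15.8-20.8) under lenvatinib and 60.8 CPM (54.5-67.7) under combo, 3.35-fold higher. Il7r (chromosome 15, 9505788-9530176, - strand) stood at 235 CPM (227-244) and 475 CPM (457-494), 2.02-fold higher. Il7r was also higher under combo in Pdcd1+ cells, at 83.2 and 147 CPM, in Gzmk+ cells, at 128 and 182 CPM, and in the CD4 T cells chosen by the same rule, at 562 and 703 CPM. Igfbp4 lay under 20 CPM in both of these CD8 classes, at 1.76 and 5.64 CPM in Pdcd1+ and 5.18 and 3.54 CPM in Gzmk+ cells, and stood at 44.0 and 86.1 CPM in the CD4 T cells. Klf2, the factor that drives S1pr1, stood at 842 and 1357 CPM, and Dapl1 at 116 and 184 CPM, both short of 2-fold. Satb1, a chromatin organizer of T cells, was lower under combo, at 732 and 467 CPM. The list's median was 0.18 (log2), which is 0.36 above the median of all genes, with 9 of 17 genes above it and 8 below, where 50% of all genes lie on each side.

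The median of the same list lay on the other side in the other CD8 classes, although the list was split in the Lef1/Tcf7+ class. There, 9 of the 17 genes lay above the median of all genes and 8 below. Relative to the median of all genes, the list's median stood at -0.48 in the Lef1/Tcf7-low, -0.37 in the Gzmk+ and -0.15 in the Pdcd1+ class. The 17 genes had reached 20 CPM in the Lef1/Tcf7+ class and were not required to reach it in the others. In Gzmk+ cells the list's uncentred median, -0.55, was the ratio of Igfbp4, which lay under 20 CPM there. These medians therefore rest partly on genes at low levels. In the CD4 T cells chosen by the same rule it stood at 0.39. Ccr7, for example, had a log2 ratio of 0.38 in the Lef1/Tcf7+ CD8 T cells and 1.02 in their CD4 counterparts, but -0.32 in Gzmk+ and -0.83 in Pdcd1+ cells. Dapl1 had ratios of 0.66 and 1.40 against -0.77 and -0.91, the latter at low levels of 23.2 and 13.6 CPM in Gzmk+ and 30.8 and 16.4 CPM in Pdcd1+ cells. The cells were chosen on Lef1 and Tcf7 in each library separately, and the difference between classes was not tested.

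Effector and memory genes tested in the class numbered 25, of which none was at least 2-fold higher under combo and 3 were at least 2-fold lower. Gzma, the protease granzyme A, stood at 204 CPM (196-213) under lenvatinib and 57.7 CPM (51.5-64.5) under combo, 3.54-fold lower, with a UMI in 38.7% and 18.2% of the cells. Without the doublets that Scrublet marked, Gzma stood at 119 and 31.6 CPM, and 1 cell held 10.0% of its UMIs under lenvatinib and another 23.2% under combo. The log2 ratio was -1.82 with the doublets and -1.92 without them. In Gzmk+ and Pdcd1+ cells, Gzma had the opposite order, with log2 ratios of 0.48 and 0.89. Gzmm stood at 67.1 and 27.5 CPM, and Eomes at 118 CPM (112-125) and 52.6 CPM (46.7-59.0). In B cells, which gave the free RNA background, all 3 were lower under combo too. The log2 ratios there were -2.70 for Gzma, -3.07 for Gzmm and -3.45 for Eomes. The part of free RNA in the differences of these genes was not tested. Tbx21, which encodes the effector factor T-bet, stood at 48.2 and 24.7 CPM, just short of 2-fold. Ccl5 and Gzmb were higher under combo, by 0.47 and 0.70 (log2), and Klrd1 by 0.26. The list's median was -0.23, which is -0.04 relative to all genes. Of the 25 genes, 15 lay below the median of all genes, where 50% of all genes lie. Further genes among the 10 lowest were the trafficking receptor Ccr2 (61.9 and 25.1 CPM), the lysosomal enzyme gene Arsb (49.5 and 14.8 CPM) and Samd3 (75.2 and 28.4 CPM).

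Interferon-stimulated genes were lower under combo throughout the list. All 22 tested members stood lower under combo, and 20 of 22 lay below the median of all genes, where 50% of all genes lie. At least 2-fold lower were 2, where 0.972% of all genes were. The share of all genes lower without centring was not computed. The list's median was -0.60 (log2), or -0.42 relative to all genes. Isg15, a ubiquitin-like modifier, stood at 62.6 CPM (58.1-67.3) and 29.9 CPM (25.5-34.8), and Ifi27l2a at 403 CPM (391-415) and 174 CPM (163-186). Usp18, a feedback inhibitor of interferon signaling, stood at 31.3 and 17.2 CPM. After thinning, 50.9% of the cells under lenvatinib (48.1-53.7%) and 34.8% under combo (31.1-38.7%) held UMIs of at least 3 genes of the list, against 42.0% and 40.3% of B cells. The order was shared by every T cell class examined, with list medians relative to all genes from -0.42 to -0.71. In B cells the list's median was also lower under combo, at -0.18 uncentred, where the median of all genes was -0.37. Relative to that median, the list stood at 0.19 in B cells.

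Among the targets of palbociclib, neither kinase gene lay far from its lenvatinib level. Cdk4 stood at 73.0 CPM (68.2-78.1) under lenvatinib and 68.3 CPM (61.6-75.6) under combo, and Cdk6 at 85.5 CPM (80.2-91.0) and 79.0 CPM (71.7-86.8). Of 8 genes of the CDK4/6 and RB list that reached 20 CPM, 1 was at least 2-fold higher and none was 2-fold lower. This was Cdkn1a, the inhibitor p21, at 20.2 CPM (17.7-23.0) and 43.6 CPM (38.2-49.5). Of the DNA replication genes, 10 of 11 tested were lower under combo, and 8 of 11 lay below the median of all genes, where 50% of all genes lie. None was 2-fold lower, where 0.972% of all genes were. The share of all genes lower without centring was not computed, and the median of all genes was itself -0.18 (log2). Pcna, the sliding clamp of replication, stood at 203 and 145 CPM, and the helicase subunit Mcm6 at 80.1 and 46.2 CPM. Mitosis genes were low by the rule, with Top2a at 37.0 and 15.8 CPM and Mki67 at 16.7 and 2.75 CPM.

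Genes of protein synthesis and glycolysis lay higher under combo. Ribosomal protein genes made up 32.2% of the class's UMIs under lenvatinib and 37.6% under combo, against 26.3% and 29.4% in the other CD8 cells. Of 89 such genes tested, 73 were higher under combo, 84 lay above the median of all genes, where 50% of all genes lie, and none was 2-fold higher. Of 15 glycolysis genes, 11 were higher and 13 lay above the median, with Aldoa at 279 and 426 CPM and Ldha at 264 and 348 CPM. Both lists lay above the median of all genes in the other T cell classes too, and also in B cells. Relative to all genes, the B cell medians were 0.54 for ribosomal proteins and 0.44 for glycolysis, and uncentred they were 0.17 and 0.08. Among 10 survival genes, Bcl2a1d was at least 2-fold higher, at 17.7 and 42.0 CPM, and Bcl2 itself stood at 702 and 642 CPM.

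**Figure D5:**
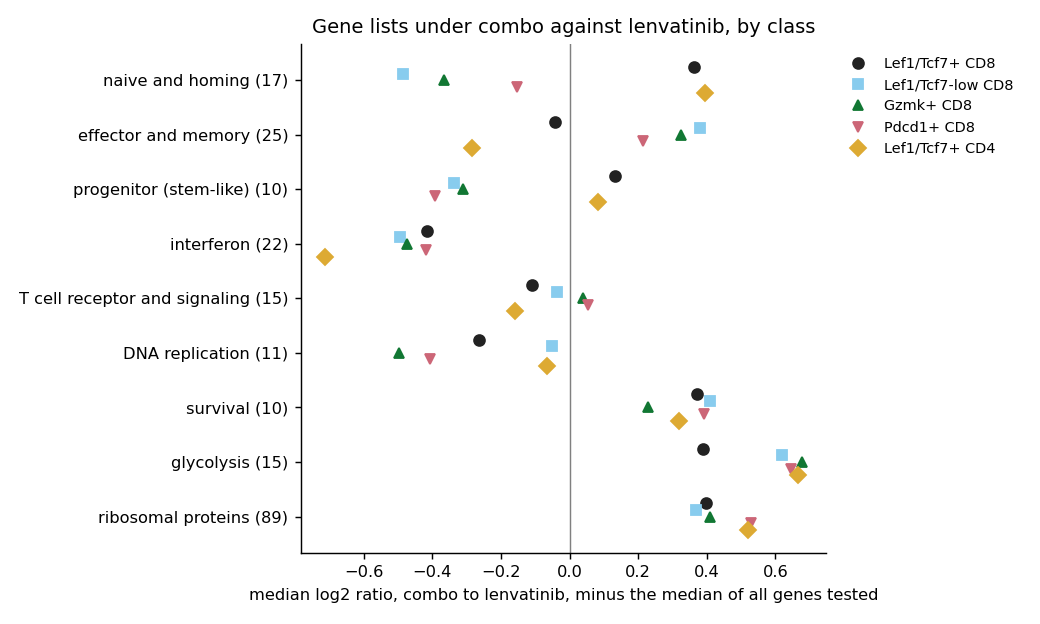
Median log2 ratio of combo to lenvatinib for 9 gene lists, minus the median of all genes tested, in Lef1/Tcf7+ CD8 T cells (black circles), 3 other CD8 classes and CD4 T cells chosen by the same rule (yellow diamonds); the number of genes tested follows each list's name. The naive and homing list lay at 0.36 in the Lef1/Tcf7+ CD8 T cells, with 9 of its 17 genes above the median of all genes. It lay at 0.39 in the CD4 cells but below 0 in the other CD8 classes, whereas the interferon list lay below 0 in all 5. Genes were taken by their level in the Lef1/Tcf7+ CD8 T cells, so some lay under 20 CPM in other classes.

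Most of the inhibitory receptors listed were low in the class, from which the rule had removed every cell with a Pdcd1 UMI. Only 2 of 9 reached a mean of 20 CPM, Ctla4 at 31.1 CPM (27.9-34.5) under lenvatinib and 86.5 CPM (78.9-94.7) under combo, and Cd160 at 64.7 and 50.6 CPM. Before thinning, a Ctla4 UMI was seen in 18.3% of the cells under lenvatinib and 33.7% under combo. Ctla4 was 2.78-fold higher under combo in the class, with log2 ratios of 0.19 in Gzmk+ and 0.16 in Pdcd1+ cells. Lag3, a receptor of exhausted T cells, stood at 3.58 and 4.03 CPM, and Havcr2 at 1.13 and 1.83 CPM. Of 10 progenitor genes tested, none was 2-fold different, with Tox, a factor of exhaustion, at 62.4 and 45.4 CPM. Residency genes likewise gave none at 2-fold, and Itgae, the CD103 integrin of resident cells, stood at 4.62 and 6.41 CPM.

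RNA of other cell types moved with treatment in the class. All 9 neutrophil markers were detected in both libraries, and they summed to 953 CPM under lenvatinib and 4098 CPM under combo. Other CD8 gate cells held 458 and 13822 CPM and B cells 1444 and 16455 CPM of the same markers. The 10 genes with the largest ratio of combo to lenvatinib were led by Cstdc5, Chil3, Retnlg and Ltf, and S100a8 was detected in 73.0% of the combo cells after thinning, close to the 74.9% of B cells. Of the 39 genes at least 2-fold higher, 24 were also at least 2-fold higher in B cells. Igfbp4, Il7r, Ctla4 and Cdkn1a were not among these 24, with B cell log2 ratios of -1.95, -1.10, 0.22 and 0.03. The ratios of Igfbp4 and Il7r there rest on few B cells. Before thinning, Igfbp4 was detected in 2.44% of B cells under lenvatinib and 0.714% under combo, and Il7r in 7.72% and 5.36%. Cdkn1a was also higher under combo in Gzmk+ and Pdcd1+ cells, with log2 ratios of 0.71 and 0.63. Of the 49 genes at least 2-fold lower, 25 were also at least 2-fold lower in B cells. The share of all genes tested that lay past 2-fold in B cells was not computed. Immunoglobulin genes led the genes lower under combo. Under lenvatinib, 1 cell held 96.5% of the class's Ighg2b UMIs and 43.8% of its Igkc UMIs, and another held 95.3% of its Ighg2c UMIs. Without the top cell of each library, Ighg2b went from a log2 ratio of -4.98 to -0.20 and Ighg2c from -2.83 to 1.54. Of the genes past 2-fold, 35 of 39 higher and 47 of 49 lower ones stayed there without their top cells. The part of neutrophil and plasma cell RNA in the other results was not tested.

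T cell receptor beta variable genes, which the rule did not use, were sparse in this assay, which reads the 3′ end of transcripts, with 285 UMIs under lenvatinib and 175 under combo. They spread over 20 and 21 genes. Trbv12-2 led in both, with 17.9% (13.6-22.8%) under lenvatinib and 22.9% (16.9-29.8%) under combo, and reads shared with its close relative Trbv12-1 could move between them. In the Gzmk+ class under combo, Trbv3 held 30.5% (24.8-36.7%) of 246 UMIs, while in the Lef1/Tcf7+ class it held 10.3% (6.21-15.8%) under combo. These shares are of UMIs, and cells of 1 expanded clone count repeatedly in them.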

How the data were processed

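The deposited values were UMI counts, not normalized by the authors, from 10x 3′ v3 libraries mapped to mm10; the labels name Cell Ranger 5.0.1 and the file headers 6.0.1. Cells with over 6000 genes or over 25% mitochondrial UMIs were removed (308 under lenvatinib and 376 under combo). Doublets were called with Scrublet (scanpy 1.11.5; expected rate 6%) and removed only in an alternative. Counts were summed per class and library and scaled to CPM, with exact Poisson intervals; shares had exact Clopper-Pearson intervals (scipy 1.17.1, 95%). For shares of cells with a UMI, cells were thinned to 2000 UMIs. Genes were tested for fold with a mean of at least 20 CPM, and a gene at 0 was set to 3 counts. B cells (Cd79a and Ms4a1 at least 2, no Cd3) gave the free RNA background. Named genes were those of the rule, the 10 highest and 10 lowest of each comparison, and the lists, without genes of the rule. The memory-gene score was formed after seeing the data. Members and lists were chosen with earlier results of these data known. Coordinates come from GENCODE M21. Data were simulated for the treatment comparison (5218 genes). Of genes changed 4-fold, 94% came within 0.3 of the true log2 ratio, and of those changed 2-fold, 99%. At the 2-fold limit itself, 52% of the genes changed 2-fold were called. The simulation drew counting error only, without the spread between cells. Alternatives covered the cell filter, the rule's limits, doublets, thinning, scaling and fold. A few genes, and the share of cells defined with 1 of them, are not reported here.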

Additional observations from a re-analysis of the deposited data

Results flagged for a closer look

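In 10 genes the Lef1/Tcf7+ CD8 T cells lay at least 2-fold above the other CD8 gate cells in the lenvatinib library and at least 2-fold below them in the combo library. The difference between the libraries was not tested, since each treatment had 1 library. Of these, 9 were genes of neutrophils and related myeloid cells. S100a8 had log2 ratios of the class to the other CD8 cells of 1.03 under lenvatinib and -1.74 under combo, S100a9 of 1.04 and -1.76, and Camp of 1.14 and -2.18. Lcn2 had ratios of 1.08 and -1.64, Ngp of 1.11 and -1.99, and Retnlg of 1.58 and -1.55. Mmp8 stood at 1.52 and -1.61, Wfdc21 at 1.27 and -1.56, and Lrg1 at 1.06 and -1.16. The 9 neutrophil markers summed to 953 CPM in the class and 458 CPM in the other CD8 cells under lenvatinib, and to 4098 and 13822 CPM under combo, with 24.7% and 32.7% of the class's neutrophil marker UMIs in its top cell. The immunoglobulin gene Ighg2c had ratios of 4.60 and -3.64, and 1 cell held 95.3% of its UMIs in the class under lenvatinib.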

How the results depend on the processing

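Of 80 recomputed values of the main results, 48 stayed within set limits, 30 moved past them and 2 reversed. The limit was the counting interval for shares, 1.5 times for counts of genes and a fixed log2 step for list medians. Thinning all cells to 2000 UMIs before the rule gave a ratio of the shares of all cells of 0.53 (2.01% and 1.06%) and of CD8 gate cells of 0.48. The share with an effector UMI gave ratios of 0.91 at 1000 UMIs, 0.98 at 3000 and 1.001 without thinning, the last in the opposite direction. The share with 3 or more interferon genes gave 0.52, 0.83 and 0.94 at these depths. The share low in memory genes gave 2.87 at 3000 UMIs with 3 or fewer, and 0.98, reversed, for Ccl5 alone; both were chosen after seeing the data.

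Genes at least 2-fold higher under combo numbered 74 without mitochondrial, ribosomal protein and hemoglobin genes in the total, 8 at 100 CPM, 122 at 5 CPM and 91 at 1.5-fold. Those lower numbered 10 at 100 CPM, 196 at 5 CPM, 627 at 1.5-fold and 17 centred on the median. Genes higher in the class than in other CD8 cells numbered 23 with the reduced total, 3 at 100 CPM, 20 at 5 CPM, 45 at 1.5-fold, 20 by per-cell means and 19 centred. Those lower numbered 18 at 100 CPM, 243 at 5 CPM and 233 at 1.5-fold. The naive list's median was 0.29 with the reduced total and 0.36 centred. The effector list's was -0.12, -0.043 centred and -0.34 with at least 3 Lef1 and Tcf7 UMIs. Among 309 named genes, 2 changed direction without their top cells, Ighg2c to 1.54 and Xcr1 to 0.33. No paired analysis was possible because each treatment had 1 library.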
